A study of Mus musculus with 6 samples.

Results

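Myelin and mature oligodendrocyte genes were compared between Sox9 KO and control libraries of sorted olfactory bulb cells. The 9 genes, chosen by symbol, were Mbp, Mobp, Mag, Mog, Cnp, Cldn11, Opalin, Ermn and Ugt8a, of 24421 genes listed in each library, and all 9 passed the filter on low values. The control mice carried the genotype labelled WT on a C57BL/6 background, which the study names C57BL/6J or Sox9+/+, and the KO mice were Sox9fl/fl. The sorted cells came from adult males. All 6 mice (3 per group, 1 library each) had received AAV-GFAP-iCre-P2a-TurboRFP in the olfactory bulb, so the controls also carried virus, Cre and TurboRFP but no floxed Sox9. The GFAP promoter that drives the transgene is active mainly in astrocytes, and TurboRFP-positive cells were collected 4 weeks after injection, so that no step of the sort selected oligodendrocytes. Values are normalized counts, which are whole reads on a gene after division by the size factor of the library.

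Oligodendrocytes wrap axons in myelin, a stack of membrane that is rich in galactolipids and held together by a small set of abundant proteins. The stack has compact layers, in which the cytoplasm is squeezed out, and non-compact channels, loops and junctions that keep some cytoplasm. Its genes come on late, after precursors leave the cell cycle and mature. In the olfactory bulb, oligodendrocytes lie mostly in the granule cell layer and around the axons of mitral and tufted cells, and SOX9 itself belongs to the glial program of progenitors and astrocytes.

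Transcripts of 8 of the 9 genes were lower in Sox9 KO libraries, from 2.09-fold for Mbp, the myelin basic protein, to 8.26-fold for Cldn11, the claudin of myelin tight junctions, as ratios of group means. None of the 9 genes was called higher by limma, edgeR or DESeq2, or at an unadjusted p of 0.05. Opalin was not called by limma at the adjusted p, whereas edgeR, DESeq2 and the unadjusted p called it lower. A gene is called lower or higher at an adjusted p of 0.05 and a 1.5-fold change (limma on log2(normalized count + 1), Benjamini-Hochberg over 18413 tested genes). Lower calls were frequent in these libraries: 28.8% of all tested genes were called lower and 22.2% higher, and 34.7% were lower with groups that did not overlap. That direction depends on scaling, since 56.4% of all calls were lower ones with the size factors of the authors, 43.2% after quantile normalization and 71.5% after scaling to the same total without Rn45s, the ribosomal RNA precursor gene. The median log2 fold change was -1.57 over the 9 genes and -0.07 over all tested genes. Among the 9 genes, 8 had groups that did not overlap. In bulk RNA, fewer cells of a type and less RNA per cell cannot be told apart.

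The libraries held 18242129 to 86906527 reads on genes, and 1 read was worth 0.395 to 1.58 normalized counts. Sox9 fell from 5556 ± 881 normalized counts in controls to 58.2 ± 5.88 in KO (SD, n = 3), which checks the labels. The labelled cell type is olfactory bulb astrocytes. All 9 astrocyte markers were detected in every library, but all 9 were called lower in KO, and their summed level ranged from 449211 to 499249 in controls and from 31646 to 40364 in KO. All 8 microglia markers, which define the resident immune cells of the brain, were called higher, with sums of 134997 to 159876 in controls and 469024 to 564793 in KO. These shifts move with every difference given here, and their part in the results was not tested.

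Positions are given in mm10 (GRCm38.p6, RefSeq). Ermn lies at chr2:58045115-58052864 on the minus strand, Cldn11 at chr3:31149920-31164326 on the plus strand, Ugt8a at chr3:125865272-125938682 on the minus strand, and Mag at chr7:30899175-30914922 on the minus strand. Mobp lies at chr9:120149742-120181488 on the plus strand, Cnp at chr11:100574909-100591875 on the plus strand, Mog at chr17:37010740-37023398 on the minus strand, and Opalin at chr19:41061959-41077113 on the minus strand. No member overlaps another. Whether reads were counted by strand is not stated in the sources used here. Exons of Cnp overlap the span of Dnajc7, introns included, and exons of Ermn overlap the span of Galnt5, both on the opposite strand. Dnajc7 measured 3122 to 3542 normalized counts in controls and 3562 to 4145 in KO, and Galnt5 stayed between 0 and 24.3 in all 6 libraries. Exons of Mobp overlap the span of Gm38642 on the same strand, a gene model that is not among the listed genes.

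Because the deletion removed a SOX factor, the promoters of the members were searched for the core SOX letters AACAAT and ACAAAG on both strands. RefSeq promoter windows spanning the bases just before and after a start site were found for 8 of the 9 genes, with 10 windows since Mag has 3 start sites. None of the 10 windows held AACAAT, which 10.7% of 32851 windows genome-wide hold. ACAAAG lay in at least 1 window of 4 of the 8 genes, where 18.7% of single windows hold it. The first is a count per gene and the second a share of windows, so they are not like measures. Mobp carried 6 matches to ACAAAG, where 0.198% of windows have at least 3 and 0.00913% at least 5. The upstream parts of the windows of Mobp, Cnp and Opalin are shown because they span many, 1 and 2 matches, the second Opalin match lying after the start. Each sequence runs 5′ to 3′ on the strand of its gene, with ACAAAG or its reverse complement CTTTGT in capitals, at chr9:120149492-120149741 (plus strand), chr11:100574689-100574938 (plus strand) and chr19:41077114-41077363 (minus strand).
Mobp: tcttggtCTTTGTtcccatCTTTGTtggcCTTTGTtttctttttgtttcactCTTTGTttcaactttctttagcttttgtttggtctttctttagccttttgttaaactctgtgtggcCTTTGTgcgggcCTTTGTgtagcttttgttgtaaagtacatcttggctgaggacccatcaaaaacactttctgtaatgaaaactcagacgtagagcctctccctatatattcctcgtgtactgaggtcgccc
Cnp: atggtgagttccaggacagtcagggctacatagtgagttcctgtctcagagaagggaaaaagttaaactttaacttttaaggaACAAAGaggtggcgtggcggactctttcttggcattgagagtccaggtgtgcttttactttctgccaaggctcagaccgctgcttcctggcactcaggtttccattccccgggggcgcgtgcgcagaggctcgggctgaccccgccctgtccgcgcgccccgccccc
Opalin: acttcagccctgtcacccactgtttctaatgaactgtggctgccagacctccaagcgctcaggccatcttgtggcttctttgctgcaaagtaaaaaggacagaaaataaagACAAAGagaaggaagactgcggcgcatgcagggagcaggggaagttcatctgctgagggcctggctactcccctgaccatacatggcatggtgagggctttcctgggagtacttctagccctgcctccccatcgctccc
In Mobp the matches lie from -243 to -120 relative to the start, all on the minus strand, whereas the single Cnp match lies at -167 and the upstream Opalin match at -139. Mag held 1 match in each of 2 of its start sites, at -126 and -67, which are the same genomic letters. The windows of Mog, Cldn11, Ugt8a and Ermn, which changed by -3.00 to -2.47 on the log2 scale, held neither AACAAT nor ACAAAG. Mobp, Opalin, Mag and Cnp, which held matches, changed by -1.57 to -1.18. A match describes letters only, and a link between matches and changes was not tested.

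Compact myelin is built by the basic proteins. Mbp, which glues the cytoplasmic faces of the membrane together, measured 14695, 19069 and 22231 normalized counts in the 3 controls and 8235, 6577 and 11994 in KO. Every KO library lay below every control. The log2 fold change was -1.09 ± 0.21 (SE; adjusted p = 0.0011, limma), with a 95% interval from -1.55 to -0.62. The Mbp locus also produces golli transcripts, which are made in neurons and immune cells, and the gene-level count does not separate them. Mobp, a small basic protein of the same layers, measured 912, 2143 and 2068 in controls and 480, 364 and 875 in KO. The groups did not overlap, although control 1 and KO 3 differed by only a small margin. Its log2 fold change was -1.57 ± 0.36 (SE; adjusted p = 0.0032, limma).

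**Figure D1:**
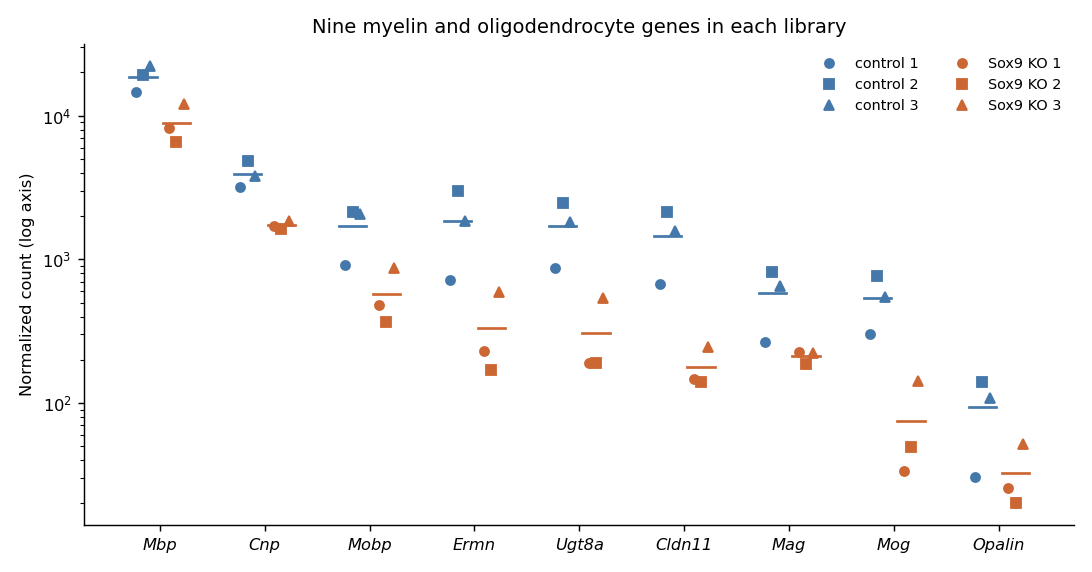
Normalized counts (log axis) of the 9 genes in each library, with the 3 controls in blue, the 3 Sox9 KO libraries in orange, symbols for the replicate number and bars for group means. The KO points lie below all controls for each gene but Opalin, and control 1 is the lowest control for all 9 genes.

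The surface of the myelin sheath carries adhesion proteins. Mag, the adhesion molecule of the inner layer next to the axon, measured 266, 818 and 654 in controls and 226, 186 and 222 in KO. The KO values were close together while the controls spread widely, and the lowest control stood just above the highest KO library. Its log2 fold change was -1.31 ± 0.34 (SE; adjusted p = 0.0074, limma), and the call depended on single libraries: the adjusted p was 0.054 without control 2 and 0.064 without control 3. Mog, the immunoglobulin-family protein of the outermost layer, measured 304, 770 and 545 in controls and 33.8, 49.3 and 141 in KO. Its groups were well separated, with 34 to 125 reads behind each KO value. The log2 fold change of Mog was -3.00 ± 0.49 (SE; adjusted p = 0.00035, limma), the largest of the 9 in this fit, whereas edgeR gave Cldn11 a larger change (-3.03 against -2.89 for Mog), as did DESeq2, quantile normalization and the fits without control 1 or without KO 1.

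Cnp encodes the phosphodiesterase that keeps the non-compact channels open. It measured 3213, 4873 and 3783 in controls and 1710, 1617 and 1843 in KO. The KO libraries differed little, and the Cnp change had the smallest standard error of the 9 genes, with a log2 fold change of -1.18 ± 0.14 (SE; adjusted p = 3.8e-05, limma). Cldn11, which seals the membrane turns with tight junction strands, measured 675, 2147 and 1570 in controls and 148, 139 and 245 in KO. All KO libraries lay far under the lowest control. The log2 fold change of Cldn11 was -2.93 ± 0.37 (SE; adjusted p = 6.0e-05, limma).

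Ermn encodes a cytoskeletal protein of the oligodendrocyte processes that appears late in myelination. Its normalized counts were 720, 3009 and 1852 in controls and 230, 169 and 597 in KO. Groups did not overlap, but the controls spanned more than the distance from control 1 to KO 3. Ermn changed by -2.47 ± 0.52 on the log2 scale (SE; adjusted p = 0.0021, limma). Ugt8a, the enzyme that makes galactosylceramide, the main galactolipid of myelin, measured 865, 2466 and 1808 in controls and 189, 189 and 538 in KO. Control 1 and KO 3 were again the closest pair across the groups. Ugt8a changed by -2.55 ± 0.44 (SE; adjusted p = 0.00052, limma).

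Opalin, a membrane protein of mammalian oligodendrocytes, had the lowest level per kb of exon and was the one gene not called. It measured 30.7, 140 and 109 in controls and 25.8, 20.1 and 51.7 in KO. Control 1 lay below KO 3, so the groups overlapped. The log2 fold change was -1.35 ± 0.57 (SE; adjusted p = 0.061, limma), with a 95% interval from -2.61 to -0.09, and 21 to 204 reads stood behind each value. Without control 1 it was called, at -2.01 with an adjusted p of 0.0071, and edgeR gave 0.032.

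**Figure D2:**
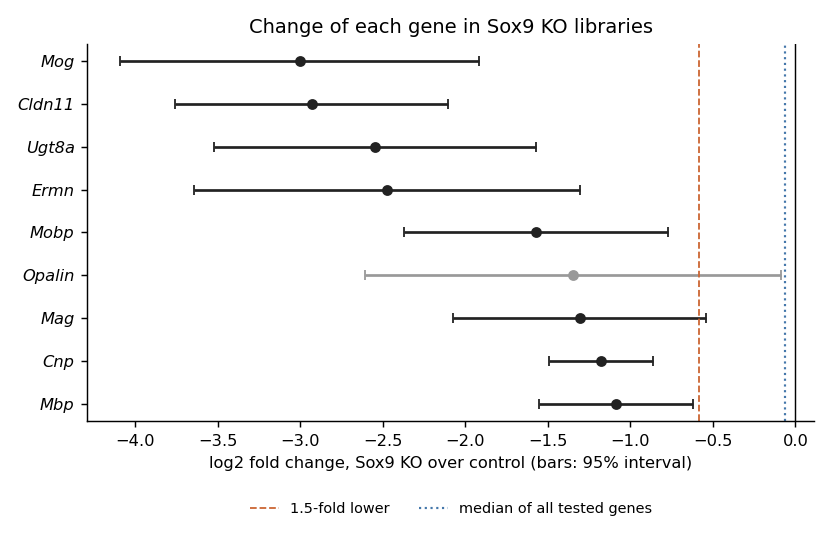
Log2 fold changes of the 9 genes (KO over control) with their 95% intervals from limma, grey for the gene not called, a dashed line at 1.5-fold lower and a dotted line at the median of all tested genes. Mog and Cldn11 lie farthest to the left and Mbp and Cnp nearest to the dashed line.

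Per kb of exon, the order of levels differed from the order of changes. Mbp stood highest in controls, at 2204 ± 447 normalized counts per kb (SD, n = 3), followed by Cnp at 1087 ± 232, Cldn11 at 783 ± 397 and Ermn at 512 ± 315. Mbp lay above Cnp in every library. From Cnp to Ermn, the ranges of neighbours over the controls overlapped. Ugt8a (378 ± 177), Mog (317 ± 137), Mobp (249 ± 101) and Mag (142 ± 69.7) followed, again with neighbouring ranges that overlap. Opalin was lowest at 31.7 ± 19.2, with no overlap with Mag. Within each single control, however, the members kept this same order. In KO, Mbp kept 1055 ± 328 and Cnp 474 ± 31.2, while Cldn11 fell to 94.8 ± 31.3, and the others measured 11.0 to 91.4. Among all tested genes per kb, Cldn11 lay at percentile 93.0 in controls and 57.1 in KO, whereas Mbp moved from 98.2 to 93.7. Exonic length came from the GENCODE annotation.

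**Figure D3:**
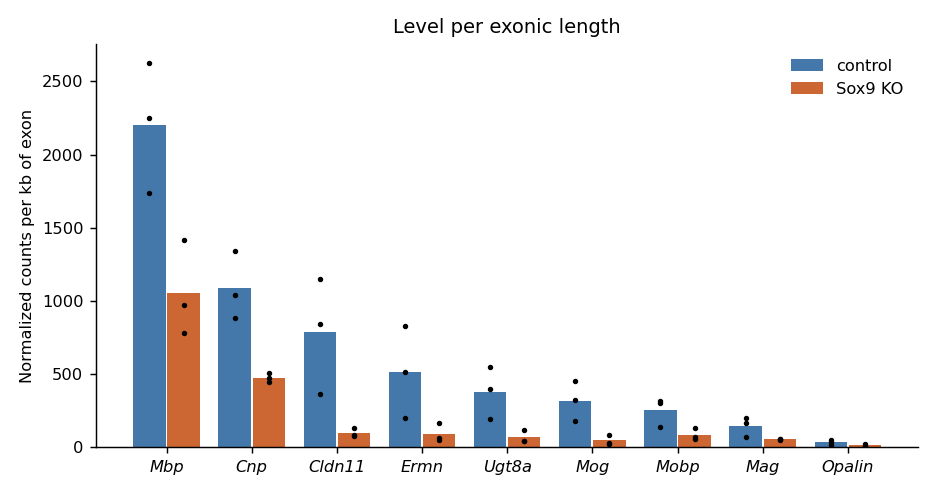
Normalized counts per kb of exon in controls (blue) and Sox9 KO (orange), as bars of the mean of 3 libraries with each library as a point. Mbp is highest in both groups, and in KO the bars of all genes but Mbp and Cnp are low.

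The members did not fall in one proportion. The Mbp to Mog ratio was 48.3, 24.8 and 40.8 in controls and 244, 133 and 84.9 in KO, and the groups did not overlap. For Mbp to Cldn11 the ratio was 21.8, 8.88 and 14.2 in controls and 55.7, 47.2 and 49.0 in KO. By contrast, the Mbp to Cnp ratio was 4.57, 3.91 and 5.88 in controls and 4.81, 4.07 and 6.51 in KO, a shift of 0.09 on the log2 scale. The Ermn to Ugt8a ratio shifted by 0.07. Ratio groups did not overlap in 18 of the 36 pairs. These pairs share genes, and the same share over pairs of all tested genes was not computed. Mog, Cldn11, Ugt8a and Ermn changed by -3.00 to -2.47 on the log2 scale, while Mobp, Mag, Cnp and Mbp changed by -1.57 to -1.09.

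Single libraries moved all members together. Control 1 was the lowest control in 9 of 9 genes, where 34.9% of all tested genes had it lowest. Control 2 was highest of the controls in 8 of 9, against 30.8% of all genes, and KO 3 was highest of the KO libraries in 8 of 9, against 32.1%, the exception being Mag. The deviations from the group mean correlated between members over 6 libraries with a median of 0.87 (range 0.53 to 0.99), a description of libraries that share depth and sort. Control 1 was also the lowest control in 11 of 12 other genes of CNS myelin structure and 21 of 25 other mature oligodendrocyte genes. The count was 4 of 7 for other myelin lipid genes and 5 of 8 for newly formed oligodendrocyte genes. It was 6 of 10 for lineage transcription factors and 2 of 5 for precursor markers. Among other cell types, control 1 was lowest in 5 of 6 endothelial markers but in 2 of 9 astrocyte markers.

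**Figure D4:**
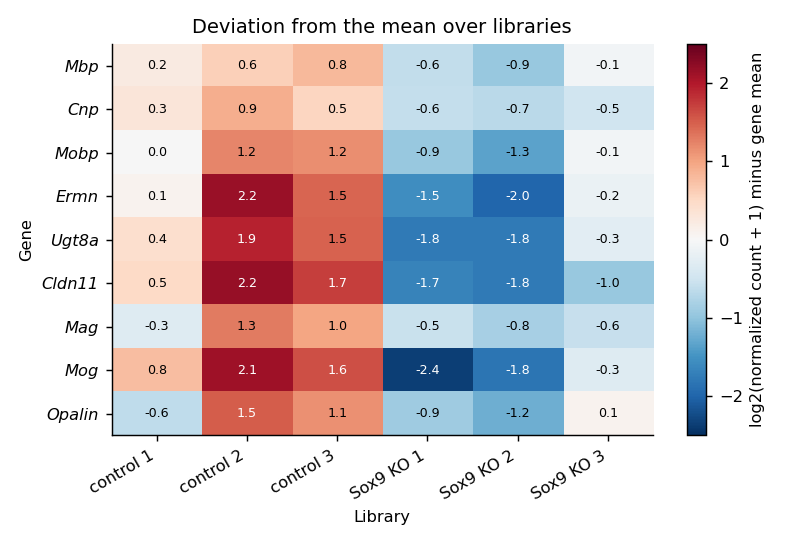
Deviation of log2(normalized count + 1) from the mean of each gene over 6 libraries, with genes as rows and libraries as columns. Control 2 and control 3 are high and Sox9 KO 1 and 2 low for all 9 genes, while control 1 and Sox9 KO 3 lie nearer to 0 for most.

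Relative to other cells, the sum of the 9 genes was 21682, 35437 and 34620 normalized counts in controls and 11279, 9311 and 16506 in KO, 2.47-fold lower. Mbp and Cnp, which changed by 2.09-fold and 2.30-fold, made up 67.6% to 88.2% of this sum, counted without regard to length, and the other members called lower changed by 2.74-fold to 8.26-fold. Per 1000 counts of astrocyte markers it was 45.9, 71.0 and 77.1 in controls and 356, 231 and 481 in KO. The astrocyte sum thus changed more than the myelin sum, although single genes crossed this order: Slc1a3, a glutamate transporter of astrocytes, changed by -2.72 on the log2 scale, less than Mog or Cldn11. Per 1000 counts of microglia markers it was 136, 262 and 248 in controls and 20.3, 16.5 and 35.2 in KO. The direction of the myelin sum therefore depended on the markers it was set against, whose part in the result was not tested.

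Other genes of the oligodendrocyte program, from lists of general knowledge, are described by their calls and medians. Among 12 other genes of CNS myelin structure and its junctions, 11 were called lower and 1 higher, with a median of -2.28. Tspan2, a tetraspanin of oligodendrocytes, measured 1685, 4270 and 3050 in controls and 569, 388 and 1019 in KO, a change of -2.20. The higher one was Cd9, a tetraspanin of myelin that microglia also make, at 5800, 7408 and 6250 in controls and 15051, 13821 and 16598 in KO, and it stayed called higher under every scaling alternative. Of the 7 other lipid genes, 4 were called lower and 2 higher, with a median of -1.47. Fa2h, the hydroxylase of myelin galactolipids, changed by -2.86, while Elovl1 and Gltp, which many cells use, changed by 0.76 and 0.81 and lost their calls when each library was scaled to the same total.

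Mature oligodendrocyte genes outside the set were lower in 20 of 25 and higher in 3, with a median of -2.28. Apod, a lipocalin of glia, measured 11818, 14130 and 13474 in controls and 3861, 7435 and 7764 in KO. Evi2a rose by 2.10 on the log2 scale, and Trf, the iron carrier transferrin, changed by 0.80 but lost its call under quantile normalization, under scaling to the same total and without control 1. Of 8 genes of newly formed oligodendrocytes, 3 were called lower and 1 higher, with a median of -0.96. Without control 3 only 1 was called lower, and 0 were called higher without control 2, without KO 1 or with both scalings to the same total. Bcas1 changed by -1.11, and Itpr2 and Tmem2 gave 0.10 and 0.19, not called, with Itpr2 below 0 under each of 3 scaling alternatives and Tmem2 below 0 under both scalings to the same total.

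Transcription factors of the lineage were lower in 9 of 10, with a median of -2.13. Olig1 measured 3021, 3618 and 2810 in controls and 246, 233 and 333 in KO, a change of -3.55 ± 0.16 (SE; adjusted p = 3.9e-08, limma). Myrf, the factor that switches on myelin genes, measured 519, 1030 and 692 in controls and 87.4, 98.7 and 187 in KO, and Sox10, which acts with it, measured 355, 575 and 374 in controls and 108, 199 and 181 in KO. Nkx6-2, which acts late in the lineage, changed by -2.58, with only 4 to 11 reads behind each KO value. Myrf, Sox10 and Nkx6-2 were chosen after their values were seen. Zeb2, a factor that microglia also make, was called higher, at 15080, 15715 and 15318 in controls and 37906, 38251 and 37292 in KO. All 5 precursor markers were called lower, with a median of -3.05, and Pdgfra, the receptor that marks precursors, measured 620, 882 and 1390 in controls and 88.4, 98.3 and 150 in KO. Astrocyte markers (9 of 9 lower, median -3.69) and neuron markers (7 of 8 lower, median -2.64) were also low in KO.

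**Figure D5:**
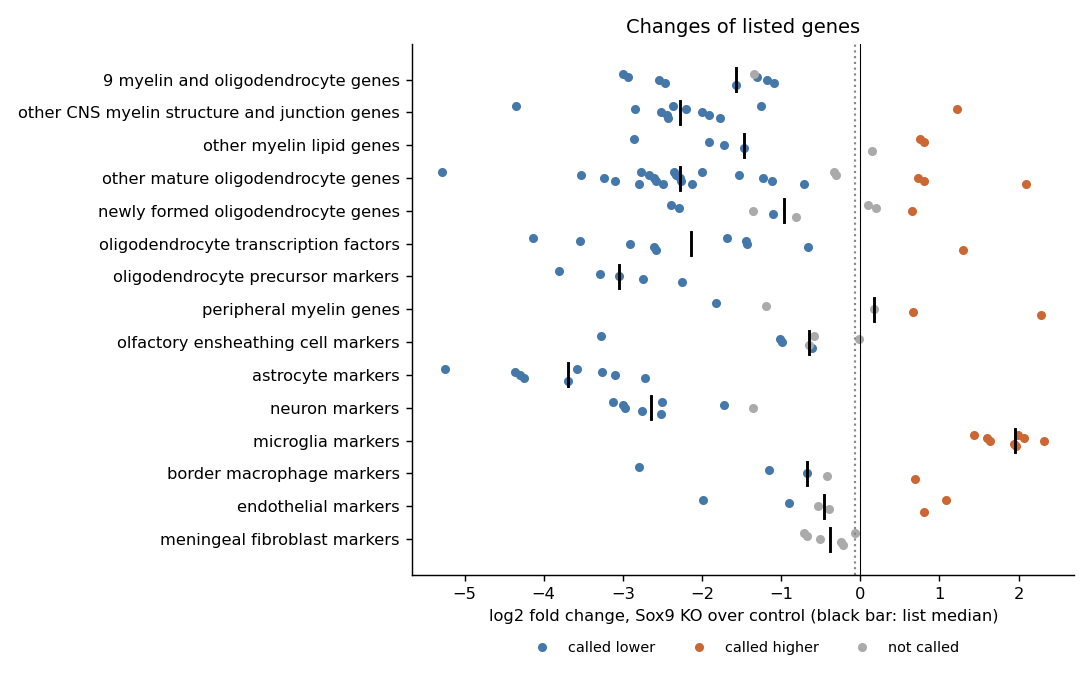
Log2 fold change of each tested gene of the 9-gene set and of 14 other lists (blue called lower, orange called higher, grey not called), with a black bar at the list median and a dotted line at the median of all tested genes. Most myelin, precursor, astrocyte and neuron genes lie to the left and all 8 microglia markers to the right.

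Genes whose levels over the 6 libraries were most like the mean log2 level of the 9 were Rbp7, Thap2, Kndc1, Carns1 and Fa2h, with Pearson r of 0.998, 0.998, 0.996, 0.996 and 0.995. A correlation does not measure the size of a change: Thap2 changed by only -0.36 on the log2 scale and was not called, and Carns1 changed by -0.87. Rbp7 rests on few reads, with 2.92, 16.5 and 12.6 normalized counts in controls and 0, 0 and 1.52 in KO. Kndc1, at 203, 657 and 574 in controls and 72.5, 58.8 and 125 in KO, follows the library order of the members. Of the 18404 other tested genes, 1.28% had an r over 0.95.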

How the data were processed

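RNA-seq covered 6 libraries, 3 per group, each from its own mouse. The authors mapped reads to mm10 with STAR 2.5.0a, counted them per gene and normalized with DESeq2 1.20.0, and the deposited signal values, named RPM, hold reads per gene scaled by a size factor: dividing by the smallest step gave whole reads, within 0.01 read, for 100% of values. Gene annotation and strandedness are not stated in the sources used here. Genes with a mean of at least 1 (18413 of 24421) were compared on log2(normalized count + 1) by limma 3.58.1 (R 4.3.3) using a variance trend, two-sided, with Benjamini-Hochberg adjustment over the tested genes. The recovered reads were also tested with edgeR 4.0.16, which called 5000 genes lower and 4340 higher, and DESeq2 1.42.0, which called 5100 and 3994. With 3 libraries per group, the smallest exact permutation p for a single gene is 0.1, so no such test was used. Members and lists were chosen with earlier results of these data known, and some genes within the naming rule are not reported here. Genes named are the 9 members, Sox9, at most the 3 highest of each list, and the 5 most alike genes; Myrf, Nkx6-2, Sox10, Pmp2, Rn45s and the overlapping genes were added outside the rule with their values known. Alternatives of pseudocount, filter, scaling, tool, block and left-out library were run.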

Additional observations from a re-analysis of the deposited data

How the results depend on the processing

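Across 17 alternatives of pseudocount, filter, scaling, variance model, tool, replicate block and left-out library, 7 of the 9 genes were called lower in all 17, Mag in 14 and Opalin in 6. With the unadjusted p included, the number of members called ranged from 7 to 9, and every member kept its negative sign. Mag lost its call after quantile normalization (adjusted p = 0.059, limma). The call for Opalin was gained with scaling to the same total, the same total without Rn45s, edgeR, DESeq2, the replicate block and without control replicate 1. With the replicate block 9 members, 9275 genes of all tested and 101 listed genes were called. Whether libraries of the same number were processed together is not stated. Their deviations from the group means correlated at -0.05, -0.01 and -0.01 over genes, which cannot show whether they share a batch. Leaving out 1 library gave 7 to 9 members, 8748 to 9111 genes of all tested and 92 to 98 listed genes. Quantile normalization moved the median of all tested genes by 0.27 on the log2 scale, the same total by -0.23 and the same total without Rn45s by -0.31. Under these, Cers2 (0.15) turned to -0.22, -0.10 and -0.18, Itpr2 (0.10) to -0.29, -0.14 and -0.23, and Tmem2 (0.19) to -0.048 and -0.13 under the scalings to a total; none of the 3 was called with the size factors. Of the counts of called genes under the alternatives, 585 stayed within 1.5 times and 45 moved further. Among these was the number of all tested genes called higher, 4090 with the size factors and 2630 with the same total without Rn45s, and the others were lists with few calls. The newly formed oligodendrocyte calls lower ranged from 1 to 4, and the olfactory ensheathing cell calls lower from 2 to 4, lowest without control 1, without control 3 and after quantile normalization.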

Other observations

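Peripheral myelin and neighbouring cell types gave mixed values. Of 6 peripheral myelin genes 5 were tested, and 1 was called lower and 2 higher. The lower call was lost without control 1, with a minimum mean of 10, with quantile normalization and with DESeq2, and the higher calls were 1 without control 3 and under each of the 3 scaling alternatives. Egr2, the factor of Schwann cell myelination that immune cells also use, measured 9600, 7493 and 7876 normalized counts in controls and 42586, 30270 and 51226 in KO. Pmp22, a membrane protein that many cells make, measured 5869, 6673 and 5131 in controls and 7924, 10253 and 9958 in KO. Pmp2 held a single read over all libraries.

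Olfactory ensheathing cells, the glia that guide olfactory axons, had 4 of 7 markers called lower and none higher, at a list median of -0.65 on the log2 scale. Without control 1, or without control 3, 2 were called lower. Ngfr, a neurotrophin receptor of these cells, measured 1074, 915 and 1181 in controls and 83.4, 117 and 126 in KO. Border macrophage markers split, with 3 of 5 lower and 1 higher, and the higher call was lost under the scaling alternatives. Lyve1, a hyaluronan receptor, measured 1758, 1619 and 1099 in controls and 212, 167 and 260 in KO, and Mrc1, the mannose receptor, measured 14496, 10853 and 9973 in controls and 17926, 19123 and 19492 in KO. Endothelial markers gave 2 lower and 2 higher of 6. Their lower calls were 1 without control 3 and with quantile normalization, and their higher calls were 1 without control 1, control 2, KO 1 or KO 3 and 0 under both scalings to the same total. By limma, 0 of 6 meningeal fibroblast markers were called, against 1 by edgeR, 2 by DESeq2, 2 at an unadjusted p of 0.05 and 2 without control 3.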
